A study of Mus musculus with 17 samples.

Results

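The genes described here are 52 ligands, receptors, inhibitors and signal carriers of the BMP, TGF-beta, FGF and hedgehog pathways of the mouse, and the measurements are DNA methylation levels at single CpG sites in whole blood. A site was taken as a member when it lay between 1000 bp upstream of the transcription start and the gene end (GENCODE vM1 on the mm9 build) and was covered by 50 or more reads in 13 or more of 17 mice. This gave 154 member sites of 18884 sites that passed the same read minimum, in 32 of the 52 genes. The other 20 genes had no site with enough reads: Bmp8a, Gdf6, Gdf10, Gdf11, Inhba, Tgfb1, Tgfb3, Bmpr2, Chrd, Grem1, Bmp1, Fgf1, Fgf10, Fgf20, Dhh, Hhip, Gli3 and the intracellular FGF homologous factors Fgf11, Fgf12 and Fgf14.

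The assay (DREAM) cut DNA at CCCGGG with a methylation-sensitive enzyme and then with an insensitive one, so that the sequenced ends of a fragment told methylated from unmethylated molecules. The C57BL/6 mice fell into 3 groups: 5 AL-young mice fed ad libitum, 4 months old (2 females and 3 males), 7 AL-old mice fed ad libitum, 29 to 33 months old (5 females and 2 males), and 5 CR-old mice under caloric restriction, 32 to 38 months old (2 females and 3 males). The comparisons addressed change with age (AL-old against AL-young) and the effect of restriction in old mice (CR-old against AL-old), and they shared the AL-old mice. No genotype or transgene was named for any group.

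These pathways carry signals between cells. BMP, activin and TGF-beta ligands bind paired receptor kinases that phosphorylate Smad proteins, while secreted antagonists such as Noggin trap the ligands outside the cell. FGFs act through receptor tyrosine kinases, and hedgehog ligands relieve the inhibition of Smo by Ptch1, which changes the activity of the Gli transcription factors. Many of these genes pattern the embryo and have CpG-dense starts.

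Total reads per mouse ran from 6407519 to 51612805, and the median member site had 397 reads in the median mouse. At 50 reads, a level of 0 allows up to 6% and a level in the middle of the range has a 95% Wilson interval of 36.6 to 63.4%, both for counting error only. The authors' correction from spiked standards multiplied the odds of methylation by a factor of 0.872 to 1.13 in 11 mice. In 6 mice the factor was 1.40 to 3.96, namely all 5 AL-old females and the CR-old female 06. The AL-old females were 29 to 30 months old and the 2 AL-old males 33 months. In AL-old the correction, sex and age thus cannot be told apart. One AL-old mouse, the male 27, stood apart from the others in raw percent. Its mean over the 89 member sites that were under 5% in AL-young and lay in the genes' own spans was 7.14%, whereas the other AL-old mice had 0.767 to 3.30%, the AL-young mice 0.928 to 1.26% and the CR-old mice 0.626 to 1.59%. Over all sites under 5% in AL-young, the same mouse had 4.88% and the other AL-old mice 0.622 to 2.00%. It was the highest of the AL-old mice at 47 of the 89 member sites (52.8%) and at 46.0% of all such sites. With the authors' correction applied, mouse 27 had 6.61% over the 89 sites, AL-old 13 had 5.37% and AL-old 14 had 4.33%. The other AL-old mice had 1.67 to 3.18%. Over all sites of this class, mouse 27 then had 4.55% and AL-old 13 had 4.05%. Calls made with the correction taken into account, and without AL-old 27, are given after the role groups. Blood is a mixture of cells, and a change in the share of a cell type cannot be told apart from a change within cells.

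**Figure D1:**
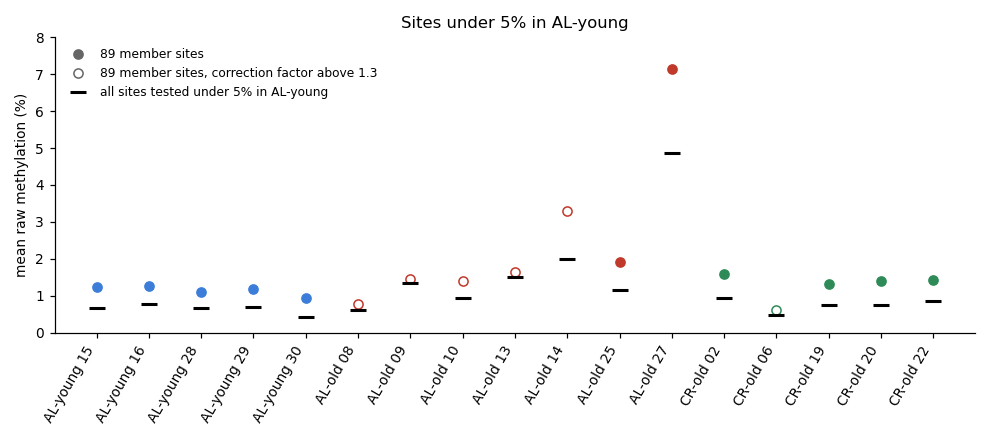
Mean raw methylation (%) of each mouse over the 89 member sites that were under 5% in AL-young (circles, open where the correction factor was above 1.3) and over all tested sites of that class (dashes). AL-old 27 lies highest, at 7.14% for the member sites.

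The sequences around the 6 gained sites, 2 of the 4 lost sites and 1 site of the diet comparison show the CpG content of the assayed stretches. Each is the plus strand of mm9, with the assayed CCCGGG in capitals. The first set holds sites that were higher in AL-old, and 30 bases only are shown where a site lies in an untranslated stretch of an exon.
Bmp2 upstream, chr2:133377725-133377857: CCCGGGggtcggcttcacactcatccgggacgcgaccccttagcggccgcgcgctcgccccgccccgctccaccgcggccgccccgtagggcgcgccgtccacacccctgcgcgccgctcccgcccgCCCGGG
Bmp2 untranslated exon, chr2:133378038-133378067: tcccacagcccgCCCGGGattggcagcccc
Bmp3 first exon and intron, chr5:99284380-99284478: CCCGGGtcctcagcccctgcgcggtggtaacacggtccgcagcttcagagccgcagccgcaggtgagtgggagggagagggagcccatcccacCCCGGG
Inhbb untranslated exon, chr1:121318410-121318439: tctccaggctccCCCGGGcgccgcatccac
Inhbb untranslated exon, chr1:121318133-121318162: ggtgccggagacCCCGGGcgcggcgctgcg
Gli2 intron, chr1:120944515-120944722: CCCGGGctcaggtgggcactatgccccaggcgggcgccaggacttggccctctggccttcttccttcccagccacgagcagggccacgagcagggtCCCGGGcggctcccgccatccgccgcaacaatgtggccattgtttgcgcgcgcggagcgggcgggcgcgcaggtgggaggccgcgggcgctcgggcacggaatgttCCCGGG

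The second set holds 2 sites that were lower in AL-old (Bmp7 and Tgfbr2) and 1 that was lower in CR-old than AL-old (Bmp6).
Bmp7 intron, chr2:172759932-172760036: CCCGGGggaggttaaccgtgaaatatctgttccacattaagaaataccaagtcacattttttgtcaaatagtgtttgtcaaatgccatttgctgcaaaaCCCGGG
Tgfbr2 intron, chr9:116079223-116079501: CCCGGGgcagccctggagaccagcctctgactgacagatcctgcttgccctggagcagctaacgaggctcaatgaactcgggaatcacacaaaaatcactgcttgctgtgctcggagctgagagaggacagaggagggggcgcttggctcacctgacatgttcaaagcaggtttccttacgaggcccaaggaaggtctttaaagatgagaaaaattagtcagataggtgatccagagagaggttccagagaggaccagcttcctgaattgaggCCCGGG
Bmp6 intron, chr13:38580495-38580735: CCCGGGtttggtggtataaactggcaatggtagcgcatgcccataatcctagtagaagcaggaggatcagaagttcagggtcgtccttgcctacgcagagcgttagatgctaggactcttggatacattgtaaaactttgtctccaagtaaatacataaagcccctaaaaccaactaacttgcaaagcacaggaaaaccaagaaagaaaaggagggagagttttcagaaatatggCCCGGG

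Of the stretches around gained sites, the upstream Bmp2 fragment held 18.8 CpG per 100 bases, the Gli2 fragments 11.5 and the Bmp3 fragment 8.1. The 30-base stretches held 6.7 at Bmp2, 10.0 at the nearer Inhbb site and 20.0 at the farther one. The Bmp7 and Tgfbr2 fragments of the lost sites held 2.9 and 2.5, and the Bmp6 fragment of the diet comparison 2.5. The other lost sites, in the first coding exon of Bmp6 and the last exon of Gli2, are not printed, and the Bmp6 exon site lay in a CpG-rich window. Neighbouring sites can be the 2 ends of 1 fragment, and each of the 154 member sites had a neighbour within 500 bp that also passed the read minimum, so sites of a gene are not independent.

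A site was called changed when its edgeR adjusted p, over all 18884 sites, was under 0.05 and the raw group means were at least 2 percentage points apart. In AL-old, 7 of the 154 member sites were called higher than in AL-young (4.55%), against 3.95% of all sites, and 13 were called lower (8.44%), against 6.0% of all sites. In CR-old, 3 member sites were called higher and 3 lower than in AL-old (1.95% each), against 1.58% and 1.76% of all sites. CR-old against AL-young gave 0 calls in either direction among the members and among all sites (0.0% and 0.0%), with edgeR at unadjusted p under 0.05 at 5 member sites and 1289 sites in all, and limma at 6 and 1204. These shares of members lie close to those of all sites.

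The gene Fgfr2 made up 39 of the 154 sites, because 1 read-through transcript extends its annotated record over several neighbouring genes. Of these, 37 lay only in the read-through span and 2 in the span of Fgfr2 itself. Leaving the 37 aside, 117 sites remained. Of these, 6 were called higher with age (5.13%, against 3.95% of all sites) and 4 lower (3.42%, against 6.0%). In CR-old, 0 were called higher than in AL-old (0%, against 1.58%) and 3 lower (2.56%, against 1.76%). The role groups below hold these 117 sites, and the read-through span is described at the end. Of the 117, 63 lay in introns, 28 in untranslated stretches of exons, 14 in coding stretches and 12 upstream. A CpG-rich 500 bp window (GC content of 50% or more, with CpG at 0.6 or more of its expected number) held 70 of them.

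All 6 gained sites were CpG-rich and under 5% in AL-young. This compares with 6 of 70 CpG-rich member sites (8.57%) against 5.89% of all CpG-rich sites. Of the 4 lost sites, 3 lay outside CpG-rich windows. The median difference between AL-old and AL-young was 0.22 points over the 117 sites and -0.01 points over all sites.

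**Figure D2:**
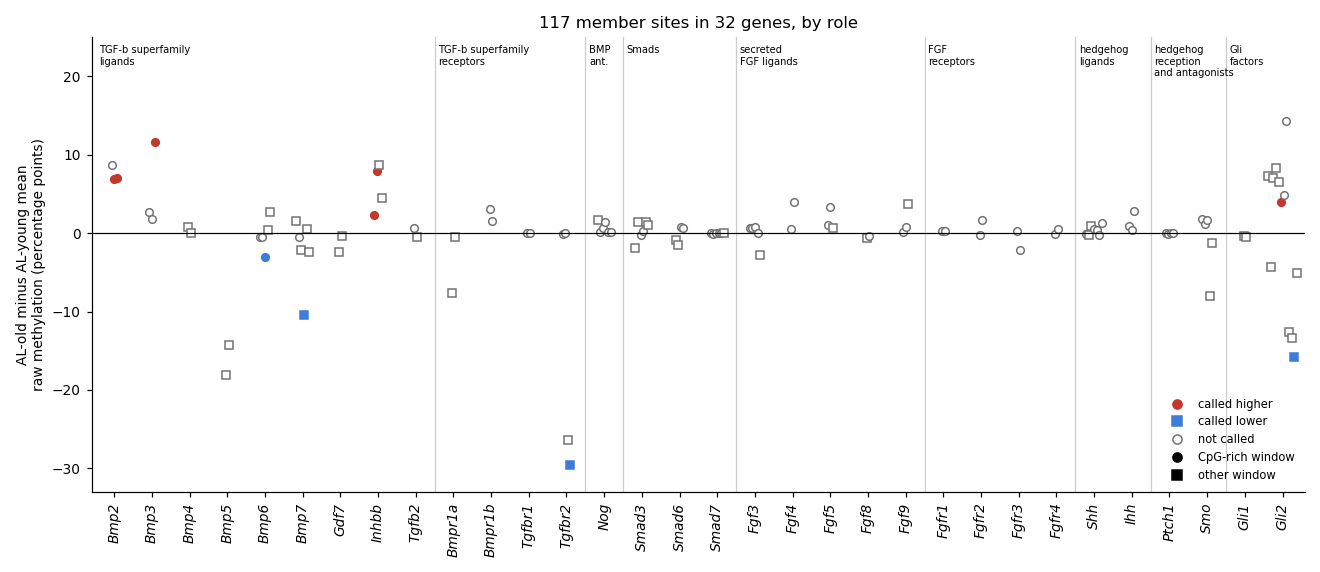
Difference of mean raw methylation between AL-old and AL-young (percentage points) at the 117 member sites, by gene and role; filled symbols passed the test. The called sites lay in Bmp2, Bmp3, Bmp6, Bmp7, Inhbb, Tgfbr2 and Gli2, and sites of the Smads, the FGF ligands and receptors and the hedgehog ligands lay within 5 points of 0.

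Among the ligands of the TGF-beta superfamily, 5 of 29 sites in 9 genes were called higher with age (17.2%, against 3.95% of all sites) and 2 lower (6.90%, against 6.0%). Bmp2, a BMP that drives bone and cartilage formation, was measured at 3 sites around its start on chromosome 2, and the called gains lay 41 bp upstream (chr2:133377852-133377857) and 157 bp downstream in the untranslated first exon (chr2:133378050-133378055). At the upstream site the AL-young mice had 1.24, 0.411, 0.358, 0.144 and 0.122%. The AL-old mice had a lowest value of 1.20%, a median of 2.52% and a highest of 36.7%. The CR-old mice had 0.617, 0.560, 0.559, 0.712 and 1.62%. The highest AL-old value, in mouse 27, stood far above the rest, and the lowest AL-old value fell just under the highest AL-young value. The means were 0.456 ± 0.459% (SD, n = 5) in AL-young, 7.34 ± 12.97% (n = 7) in AL-old and 0.814 ± 0.456% (n = 5) in CR-old, and the difference of AL-old from AL-young was 3.47 ± 0.85 (SE) as a log2 odds ratio, with an edgeR adjusted p of 0.00304.

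At the downstream Bmp2 site the AL-young mice had 0.315, 0.584, 0.586, 0.215 and 0.259%. The AL-old mice had 0.227% at the lowest, 5.06% at the median and 27.4% at the highest, and the CR-old mice had 2.76, 0.984, 1.76, 0.847 and 1.39%. One AL-old mouse was within the AL-young range and the other 6 were above it, as were all CR-old mice. In the fit, the log2 odds ratio of AL-old against AL-young was 4.14 ± 0.89 (edgeR adjusted p = 0.000609). The third site, 168 bp upstream (chr2:133377725-133377730), had 0.884 ± 0.511% in AL-young and 9.60 ± 19.1% in AL-old, of which mouse 27 held 52.7%, and was not called (edgeR adjusted p = 0.0531).

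Bmp3, a BMP family ligand that opposes other BMPs, gained methylation at 1 of its 3 sites, in the first intron 1017 bp from the start (chr5:99284473-99284478). The AL-young mice had 2.38, 1.27, 1.17, 1.45 and 1.44%, the AL-old mice 1.95% at the lowest, 6.54% at the median and 39.6% at the highest, and the CR-old mice 1.74, 2.02, 1.82, 6.13 and 3.82%. Here the highest AL-old mouse was 14, with mouse 27 second at 25.9%. As a log2 odds ratio the difference was 2.76 ± 0.77 (edgeR adjusted p = 0.00991). The neighbour 93 bp away, the other end of the printed fragment, had 0.894% in AL-young and 2.71% in AL-old and was not called (edgeR adjusted p = 0.369).

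Inhbb, which encodes the beta B subunit of activin and inhibin, gained methylation at 2 sites. Both lay in an untranslated stretch of its first exon, 401 and 678 bp from the start. At the farther site (chr1:121318145-121318150) the AL-young mice had 0.965, 0.661, 1.32, 0.674 and 0.626%, the AL-old mice 1.22% at the lowest, 4.73% at the median and 36.3% at the highest, and the CR-old mice 0.853, 0.345, 0.0986, 0.881 and 0.916%. Every CR-old mouse lay below every AL-old mouse, and 1 AL-young mouse overlapped the AL-old range. The log2 odds ratio was 2.70 ± 0.80 for AL-old against AL-young (edgeR adjusted p = 0.0163) and -3.37 ± 0.84 for CR-old against AL-old (edgeR adjusted p = 0.0126).

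At the nearer Inhbb site (chr1:121318422-121318427) the AL-young mice had 0.405, 0.110, 0.751, 0.115 and 0.0881%, the AL-old mice 0.459% at the lowest, 2.08% at the median and 8.47% at the highest, and the CR-old mice 0.432, 0.0598, 0.258, 0.463 and 0.333%. The AL-old range overlapped both other groups at its lower end. The log2 odds ratios were 3.24 ± 0.91 with age (edgeR adjusted p = 0.0107) and -3.08 ± 0.93 with diet (edgeR adjusted p = 0.0439). Both Inhbb sites were thus called in both comparisons, which share the AL-old mice. The diet call at the nearer site was lost on leaving out 9 of the 17 mice in turn, AL-old 27 (edgeR adjusted p = 0.0727), AL-old 08, 09 and 14 and each of the 5 CR-old mice, and that at the farther site on leaving out CR-old 19. The 2 Inhbb intron sites were not called: the one with the larger difference (chr1:121316618-121316623) had 1.92% in AL-young, 10.6% in the 4 AL-old mice with enough reads and 2.11% in CR-old.

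Bmp6 and Bmp7 had called losses with age. Bmp6, a BMP active in bone and iron balance, had 1 lost site in its first coding exon (chr13:38437805-38437810). The AL-young mice had 5.12, 5.22, 4.88, 4.43 and 3.29%, the AL-old mice 0.267% at the lowest, 1.22% at the median and 5.71% at the highest, and the CR-old mice 5.87, 0.221, 6.39, 5.89 and 4.43%. The low CR-old value was that of mouse 06, the CR-old mouse with a high correction factor, and the highest AL-old value was that of mouse 25, a male with a low one. As a log2 odds ratio the difference was -2.24 ± 0.74 (edgeR adjusted p = 0.0350), and the call was lost on leaving out 7 of the 17 mice in turn (AL-young 15, 16, 28 or 29, or AL-old 08, 09 or 13).

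Bmp7, a BMP needed for kidney and eye development, had 1 lost site of 6, in an intron (chr2:172759932-172759937). Values in the AL-young mice were 20.8, 16.6, 11.05, 17.6 and 13.1%, the AL-old mice 0.693% at the lowest, 5.35% at the median and 10.7% at the highest, and the CR-old mice 10.7, 7.10, 9.02, 8.22 and 15.0%. Every AL-old mouse lay below every AL-young mouse in raw percent, while CR-old overlapped both. With the authors' correction applied, AL-old 08 at 15.3% lay within the AL-young range of 11.98 to 20.8%. In the fit, the log2 odds ratio with age was -2.02 ± 0.66 (edgeR adjusted p = 0.0353), and the call was lost without AL-old 13, AL-old 14 or any 1 of the 5 AL-young mice. Across all members, every AL-old mouse lay above every AL-young mouse in raw percent at 2 sites and below at 3, against 2.12% and 2.12% of all sites.

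The largest difference among the ligands was at an uncalled site of Bmp5, a BMP of cartilage and skeleton, in an intron (chr9:75743571-75743576). AL-young had 88.8 ± 3.79%, AL-old 70.8 ± 33.0% and CR-old 85.0 ± 5.30%. The 2 lowest AL-old mice were 13 with 18.1% and 27 with 29.7%, the others being at 75.0 to 96.9% (edgeR adjusted p = 0.603). Bmp4, Gdf7 and Tgfb2 had 2 sites each, at group means of at most 8%, and 0 were called.

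**Figure D3:**
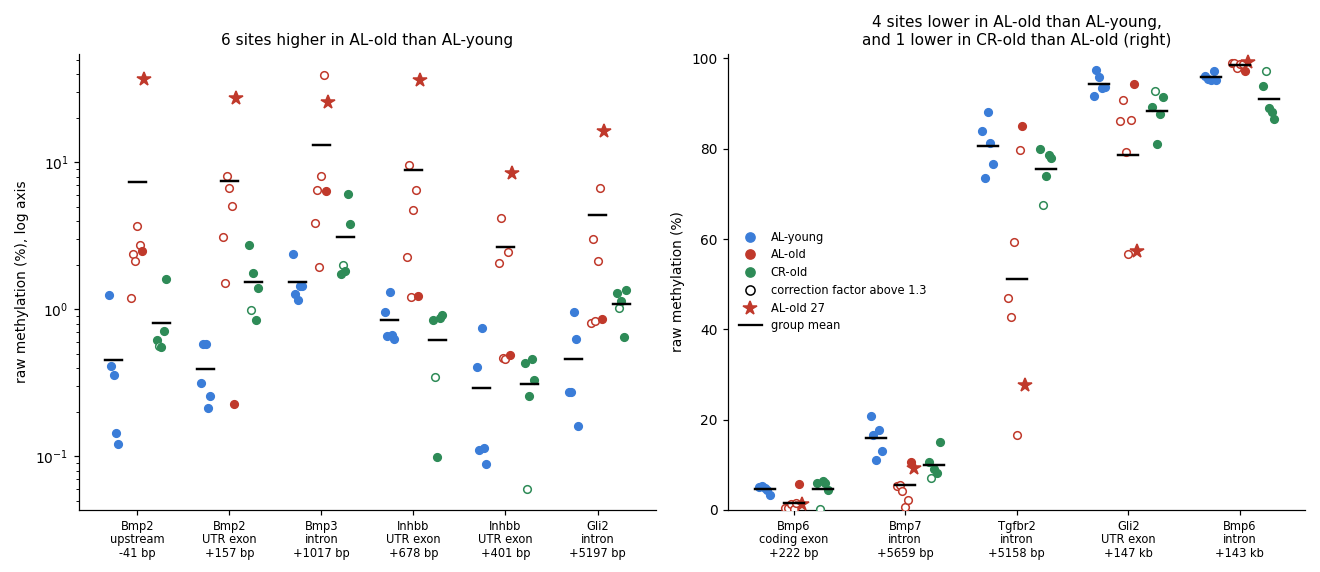
Raw methylation (%) of each mouse at the called member sites, with group means as bars; the left axis is logarithmic, and distances in the labels run to the nearest annotated transcript start. AL-old 27 (star) lies highest among AL-old at 5 of the 6 gained sites, and mice with a correction factor above 1.3 (open circles) hold most of the low AL-old values at the lost sites.

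Among the receptors, 1 of 10 sites was called, a loss in an intron of Tgfbr2, the type II TGF-beta receptor (chr9:116079223-116079228). The AL-young mice had 83.9, 73.6, 88.1, 81.2 and 76.7%, the AL-old mice 16.5% at the lowest, 46.9% at the median and 84.9% at the highest, and the CR-old mice 79.8, 67.4, 74.0, 78.5 and 78.0%. AL-old spanned almost the whole range, with 2 of 7 mice inside the AL-young range. The log2 odds ratio was -2.03 ± 0.69 (edgeR adjusted p = 0.0444). This call was lost on leaving out 13 of the 17 mice in turn, AL-old 27 among them (edgeR adjusted p = 0.0764), and held only without AL-old 10, 14 or 25 or CR-old 06. The other end of the fragment had 66.2 ± 2.72% in AL-young, 39.8 ± 16.7% in AL-old and 52.1 ± 5.95% in CR-old. It was not called (edgeR adjusted p = 0.0826). Every AL-old mouse lay below every AL-young mouse there in raw percent. With the authors' correction applied, AL-old 08 at 71.2% and AL-old 14 at 64.0% lay within the AL-young range of 62.3 to 71.4%. The starts of Tgfbr1 and Tgfbr2 stayed at group means of at most 0.24% in all 3 groups, and Bmpr1b, a type I BMP receptor, had 1.45% in AL-young and 4.58% in AL-old at its start without a call.

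The antagonist Noggin (Nog) had 6 sites at group means of 0.51 to 3.18%, and 0 were called. Its largest difference, 680 bp upstream (chr11:89164551-89164556), was 1.44 ± 0.587% in AL-young, 3.08 ± 3.73% in AL-old and 3.18 ± 1.96% in CR-old (edgeR adjusted p = 0.676). The Smads, which carry the receptor signal to the nucleus or block it, had 16 sites and 0 calls. The 6 sites of the inhibitory Smad7 had group means of at most 0.31%. The largest Smad difference was in an intron of Smad3 (chr9:63571522-63571527), with 97.2 ± 1.23% in AL-young and 95.2 ± 4.35% in AL-old (log2 odds ratio -0.40, edgeR adjusted p = 0.822), and its sign turned with the correction as an offset (log2 odds ratio 0.36).

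The 5 measured secreted FGFs (Fgf3, Fgf4, Fgf5, Fgf8 and Fgf9) had 15 sites and 0 calls, with a median of 0.83% in AL-young, 1.69% in AL-old and 1.44% in CR-old. The largest difference was in an intron of Fgf4 (chr7:152047931-152047936), where AL-young had 2.53 to 3.04%, AL-old 1.01 to 15.0% and CR-old 1.38 to 4.31% (edgeR adjusted p = 0.481). The FGF receptors Fgfr1, Fgfr2, Fgfr3 and Fgfr4 had 8 sites near their starts and 0 calls. At Fgfr3 (chr5:34066521-34066526) AL-young had 9.30 ± 2.25%, AL-old 7.19 ± 9.90% and CR-old 7.43 ± 5.02% (edgeR adjusted p = 0.278), with AL-old 27 at 28.5% and the other AL-old mice at 0.434 to 9.89%. Its log2 odds ratio with age was -1.38, but 0.96 with high correction as a covariate and 1.10 in the mice with a low factor.

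The hedgehog ligands Shh and Ihh had 10 sites and 0 calls. The largest difference was in an intron of Ihh, the ligand of growing cartilage (chr1:74997342-74997347), at 0.593 ± 0.294% in AL-young, 3.47 ± 5.19% in AL-old and 0.788 ± 0.650% in CR-old (edgeR adjusted p = 0.237), and here the highest AL-old mouse was 13, at 14.8%. The receptor Ptch1 had 4 sites at group means of at most 0.76%. Smo, the signal transducer that Ptch1 inhibits, had 3 sites near its start and 2 in an intron, and the intron site chr6:29707200-29707205 had 97.3 ± 0.665% in AL-young, 89.3 ± 12.02% in AL-old and 93.3 ± 2.80% in CR-old (edgeR adjusted p = 0.247).

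Gli2, the main activator among the Gli transcription factors, was measured at 12 sites and changed in both directions. The gained site lay in a CpG-rich part of an intron (chr1:120944717-120944722). The AL-young mice had 0.274, 0.273, 0.954, 0.630 and 0.160%, the AL-old mice 0.808% at the lowest, 2.15% at the median and 16.4% at the highest, and the CR-old mice 1.301, 1.02, 1.14, 0.648 and 1.36%. The AL-old values overlapped both other groups at their lower end. In the fit, the log2 odds ratio with age was 3.12 ± 0.86 (edgeR adjusted p = 0.00963). The site at the far end of the printed stretch (chr1:120944515-120944520) had a larger difference, 1.99 ± 0.739% in AL-young against 16.3 ± 22.1% in AL-old, but was not called (edgeR adjusted p = 0.151), with AL-old 27 at 60.2% and AL-old 14 at 31.8%.

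The lost Gli2 site lay in an untranslated stretch of the last exon (chr1:120732058-120732063). Values in the AL-young mice were 91.6, 97.5, 96.0, 93.5 and 93.6%, the AL-old mice 56.8% at the lowest, 86.2% at the median and 94.3% at the highest, and the CR-old mice 89.3, 92.9, 81.1, 87.6 and 91.4%. Mice 13 and 27 were the lowest, and 1 AL-old mouse lay within the AL-young range. As a log2 odds ratio the difference was -1.99 ± 0.68 (edgeR adjusted p = 0.0456). This call was lost on leaving out 12 of the 17 mice in turn, AL-old 27 among them (edgeR adjusted p = 0.0840), and held only without AL-old 08, 09, 14 or 25 or CR-old 06. The 2 sites of Gli1, a target and amplifier of the pathway, had group means of at most 0.88%, and 0 were called.

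**Figure D4:**
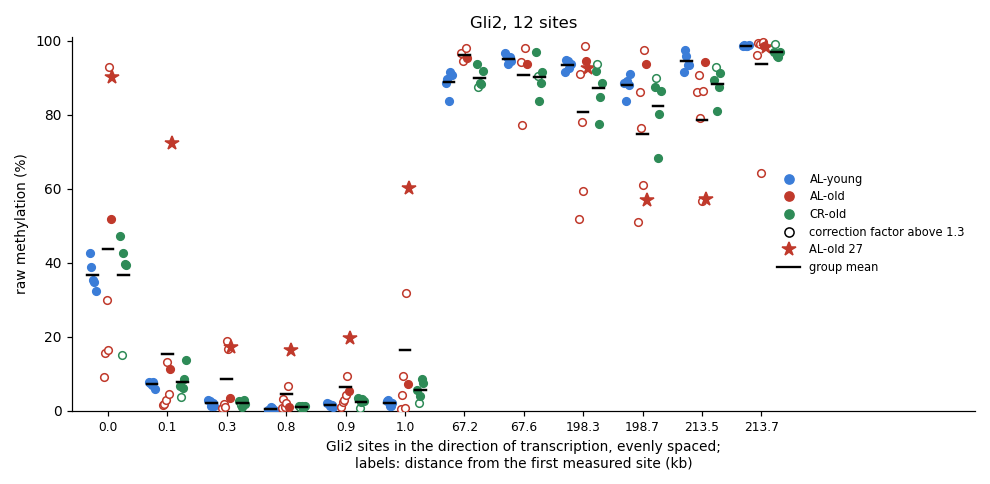
Raw methylation (%) of each mouse at the 12 Gli2 sites in the direction of transcription, evenly spaced and labelled by distance from the first measured site (kb). The first 6 sites hold the gained site and the highest AL-old values are mostly those of AL-old 27 (star); the last 6 sites are high in AL-young and hold the lost site.

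For the diet comparison, the third called site of the genes' own spans was in a distant intron of Bmp6 (chr13:38580730-38580735). The AL-young mice had 96.0, 95.5, 95.3, 97.3 and 95.3%, the AL-old mice 97.2% at the lowest, 98.7% at the median and 99.3% at the highest, and the CR-old mice 94.0, 97.2, 89.1, 88.1 and 86.6%. Of the CR-old mice, 4 lay below all others and mouse 06 overlapped AL-old. The log2 odds ratio of CR-old against AL-old was -2.75 ± 0.68 (edgeR adjusted p = 0.0118), and the call was lost without CR-old 19, 20 or 22. At the other 4 gained sites the CR-old means, 0.814 to 3.11%, lay between AL-young and AL-old, and none was called against AL-old (edgeR adjusted p = 0.0898 to 0.378). Across all members, every CR-old mouse lay below every AL-old mouse in raw percent at 4 sites and above at 0, against 0.874% and 0.254% of all sites. The CR-old mice were up to 5 months older than the oldest AL-old mouse.

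The gains and the losses behaved differently when the correction was taken into account. With the correction factor as an offset, 14 of the 117 sites were called higher with age and 0 lower, and over all 154 members 19 and 5, against 7.62% and 3.31% of all sites. The offset added Bmp6 and Fgf5 to the genes with a called gain. With high correction as a covariate, the members gave 11 and 3, against 4.92% and 1.17% of all sites. In the 11 mice with a low factor, where AL-old holds only the males 25 and 27, the members gave 28 and 2, against 8.75% and 1.7% of all sites. The genes with a called gain there also included Bmpr1b, Fgf3, Fgf9, Nog, Shh, Smad6 and Smo. All 6 gained sites were called in each of these 3 fits, and none of the 4 lost sites was called in any, nor in a fit of the AL-young and AL-old mice alone. In the low-correction mice, AL-old 25 was not above the AL-young range at downstream Bmp2, farther Inhbb, nearer Inhbb and Gli2. With the authors' correction applied it had 0.198, 1.08, 0.428 and 0.747% there, against 25.4, 34.0, 7.72 and 15.0% in AL-old 27. Those low-correction calls thus rested on AL-old 27. At upstream Bmp2 and Bmp3, AL-old 25 lay above the AL-young range, at 2.20 and 5.64%. Under the offset, 14 member sites were lower in CR-old than in AL-old, against 6.87% of all sites, and in the low-correction mice 4 were, against 2.13%. The offset raised the Bmp2 upstream mean of AL-old to 9.38% and lowered the Tgfbr2 difference, to 81.1% in AL-young against 63.2% in AL-old.

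Without AL-old 27, the member sites called higher with age fell in number from 7 to 3, against 3.24% of all sites, namely the downstream Bmp2 site, Bmp3 and the farther Inhbb site. The AL-old means of these 3 were then 4.11 ± 3.03%, 11.1 ± 14.1% and 4.26 ± 3.35% (n = 6), with edgeR adjusted p of 0.000774, 0.0186 and 0.0328. The upstream Bmp2, nearer Inhbb and Gli2 sites still had edgeR adjusted p of 0.00424, 0.0213 and 0.0183, but their means of 2.45, 1.69 and 2.40% were less than 2 points above AL-young. Without AL-old 27, 13 of the 154 members were called lower, against 7.11% of all sites. Of the 4 lost sites in the genes' own spans, those of Bmp6 and Bmp7 were still called, and those of Tgfbr2 and Gli2 were not.

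The 37 sites of the read-through span (chr7, between 137718399 and 140315926) lay in or between Tacc2, Htra1, Hmx3, Chst15, Nkx1-2, Lhpp, Fam53b and Ctbp2 and say nothing of Fgfr2's own start. Of these, 9 were called lower with age (24.3%, against 6.0% of all sites) and 1 higher (2.70%, against 3.95%), and 3 were called higher in CR-old than in AL-old (8.11%, against 1.58%). The largest loss (chr7:139744158-139744163) had 61.0, 68.9, 73.0, 69.5 and 68.8% in AL-young, 0.251% at the lowest, 14% at the median and 73.1% at the highest in AL-old, and 52.1, 27.4, 49.5, 51.9 and 53.1% in CR-old. The highest AL-old mouse was 25 and the lowest CR-old mouse was 06. As a log2 odds ratio the difference was -3.95 ± 0.79 with age (edgeR adjusted p = 0.000241) and 2.64 ± 0.78 with diet (edgeR adjusted p = 0.0394).

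A site in Htra1, a secreted protease (chr7:138081613-138081618), had 25.1 ± 9.37% in AL-young, 5.26 ± 6.39% in AL-old and 31.9 ± 19.1% in CR-old. Mouse 25 had 19.6% and the other AL-old mice 1.31 to 4.06%, while mouse 06 had 3.68% and the other CR-old mice 23.7 to 54.0%. In the fit, the log2 odds ratio was -3.14 ± 0.74 with age (edgeR adjusted p = 0.00185) and 3.47 ± 0.77 with diet (edgeR adjusted p = 0.00509). A site in Ctbp2, a transcriptional corepressor (chr7:140190459-140190464), fell from 97.8 ± 0.482% to 71.9 ± 25.97% (edgeR adjusted p = 0.000621) and was 95.3 ± 1.87% in CR-old (edgeR adjusted p = 0.0427). The gained site, also in Ctbp2 (chr7:140315921-140315926), had 0.447 ± 0.256% in AL-young and 3.89 ± 4.71% in AL-old, with 13.8% in mouse 27 (edgeR adjusted p = 0.0275). Of the 9 losses, 5 were still called under the offset and 1 in the low-correction mice.

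**Figure D5:**
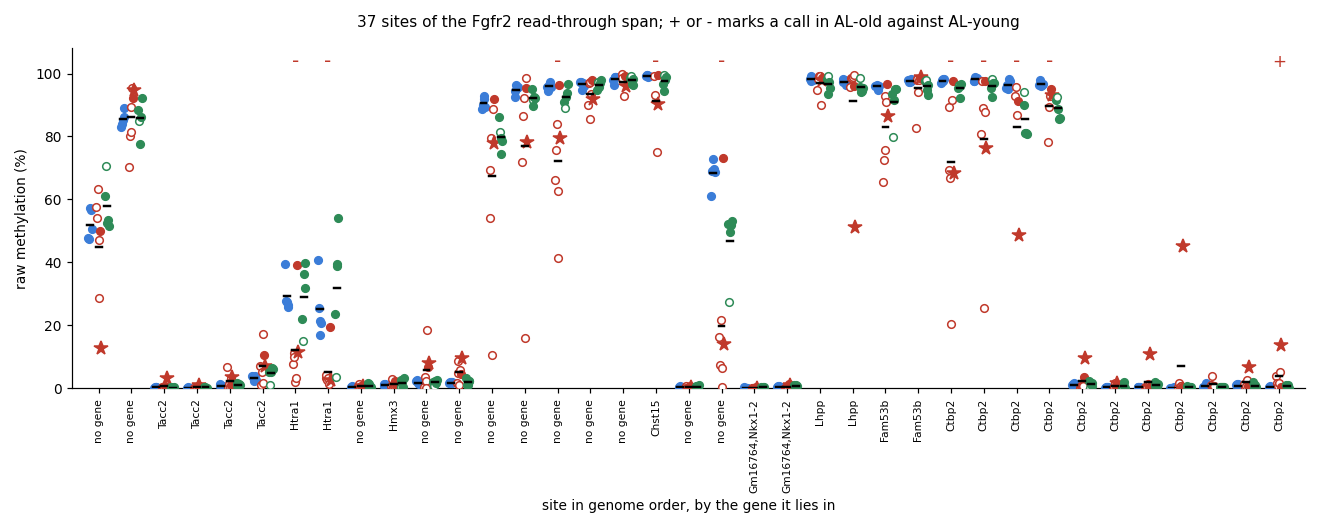
Raw methylation (%) of each mouse at the 37 read-through sites in genome order, labelled by gene; blue is AL-young, red AL-old and green CR-old, open circles have a correction factor above 1.3, the star is AL-old 27, bars are group means, and + or - marks a call with age. The 9 losses and the 1 gain are marked.

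Of 106 other genes of these pathways, 43 had 154 sites, of which 7 were called higher with age (4.55%, against 3.95% of all sites) and 5 lower (3.25%, against 6.0%). In CR-old, 5 were higher than in AL-old (3.25%, against 1.58%) and 2 lower (1.299%, against 1.76%). Bmper, a secreted BMP regulator, held 4 of the gains, and the site chr9:23027507-23027512 had 0.583 ± 0.400% in AL-young, 15.1 ± 13.99% in AL-old and 1.09 ± 0.895% in CR-old (edgeR adjusted p = 0.000189 with age and 0.00805 with diet). Gas1, a hedgehog co-receptor, held 2 gains and Acvr1, a type I BMP receptor, 1. Losses lay in Hhat (2 sites), Ltbp1 and Scube1, and at an intron site of Hhat, an enzyme that attaches palmitate to hedgehog ligands (chr1:194585710-194585715), AL-young had 94.6 ± 0.442%, AL-old 61.7 ± 23.1% and CR-old 88.4 ± 3.03% (edgeR adjusted p = 0.000532 with age).

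Lineage genes of blood were measured at 17 sites in 5 of 23 lymphoid genes and 19 sites in 7 of 20 myeloid genes, and at no site of the pan-leukocyte genes, so the labelled tissue could not be checked by those. The mean of a mouse over the lymphoid sites was 31.6 to 33.1% in AL-young, 25.3 to 36.5% in AL-old and 28.6 to 35.5% in CR-old. Over the myeloid sites it was 37.5 to 39.5%, 27.8 to 39.7% and 29.1 to 34.6%. AL-old 27 was the highest AL-old mouse on both lists. With age, 5 of the 17 lymphoid sites were called higher (29.4%, against 3.95% of all sites), in the T cell factor genes Bcl11b and Tcf7, and 1 was called lower, in Cd3g (5.88%, against 6.0%). In CR-old, 2 lymphoid sites were lower than in AL-old (11.8%, against 1.76%), 1 each in Bcl11b and Tcf7, and 0 were higher. Of the 19 myeloid sites, 0 were called higher with age and 2 lower, in Cebpb and Itgam (10.5%, against 6.0%), and 0 were called in the diet comparison. The part of cell composition in the member results was not tested.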

How the data were processed

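Whole blood DNA of 17 mice was measured by DREAM. The authors mapped reads to mm9 (the submitters' processing notes name Bowtie2 and SAMtools, and also mm10) and deposited counts of methylated, unmethylated and total reads per CCCGGG site, with the raw methylation in percent and a methylation percent adjusted by spiked standards. Per the file headers each table holds 1 mouse. From these tables the adjusted odds were found to be the raw odds times 1 factor per mouse, and the raw percent to be the share of methylated reads with 0.5 reads added to each class. Raw values with at least 50 reads are reported.

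Methylated and unmethylated counts were fitted with edgeR 4.0.16 (R 4.3.3) by the quasi-likelihood F test, with 1 coefficient per mouse. The fit had a common dispersion of 0.289, all 17 mice and Benjamini-Hochberg adjustment over 18884 autosomal sites. The code was tested on simulated data with 1 spread for all groups. That does not show how calls behave where AL-old is more variable than AL-young. The SE of a log2 odds ratio was worked back from the test, as its absolute value divided by the square root of the F statistic. limma 3.58.1 was an alternative. Other alternatives were a read minimum of 100 or 20, the correction factor as offset or covariate, low-correction mice, sex, the compared groups alone, site dispersion, no minimum difference, promoters alone (up to 500 bp after the start), the study's own rules, and each mouse left out. Sites with the largest differences were named: called member sites, the largest per role group, and up to 8 of other pathway genes. Labels give separate mice, so p-values measure the spread between mice. The members and lists were chosen with earlier results of these data known. Excluding the Fgfr2 read-through span was chosen after seeing the data. One named site of the other pathway genes is not reported here.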

Additional observations from a re-analysis of the deposited data

Results flagged for a closer look

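Over 107 sets of mice (a named site in 1 group), 23 values lay farther from the nearest mouse of their group than Dixon's 95% limit allows. The limit passes about 1 in 20 of independent sets. These sites were named for large group differences and share the same mice, so the 23 cannot be set against that rate. Of the 23, 16 were in AL-old, 4 in AL-young and 3 in CR-old. The values are raw percentages. With the authors' correction applied, AL-old 27 and AL-old 13 had 25.4 and 22.2% at downstream Bmp2, and 34.4 and 13.2% at Bmp2 upstream. AL-old 27 was the highest of its group at Bmp2 upstream (36.7%, next 3.69%), downstream Bmp2 (27.4%, next 8.04%), the farther Inhbb site (36.3%, next 9.63%), Gli2 intron (16.4%, next 6.72%), Fgfr3 (28.5%, next 9.89%), Nog (11.3%, next 2.71%) and the gained Ctbp2 site of the read-through span (13.8%, next 5.30%), and the lowest at another Ctbp2 site (48.7%, next 86.8%). AL-old 13 was the lowest at 2 Ctbp2 sites 207 bp apart (20.4 and 25.4%, next 66.7 and 76.5%) and at the Smo intron (64.6%, next 84.7%), and the highest at Ihh (14.8%, next 4.27%). AL-old 25 was the highest at the lost sites of the Bmp6 exon (5.71%, next 1.47%), Htra1 (19.6 and 39.2%, next 4.06 and 11.6%) and chr7:139744158-139744163 (73.1%, next 21.7%). AL-young 15 stood apart at Bmp2 upstream (1.24%, next 0.411%), Bmp3 (2.38%, next 1.45%), an Htra1 site (39.6%, next 27.9%) and Bmp5 (82.1%, next 90.4%). Among CR-old mice, 06 was the lowest at chr7:139744158-139744163 (27.4%, next 49.5%), 19 the lowest at a Ctbp2 site (92.1%, next 95.4%) and 22 the highest at Bmp2 upstream (1.62%, next 0.712%).

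The age effect was also compared between females and males. No member site passed edgeR adjusted p under 0.05 (the smallest was 0.502, with unadjusted p under 0.05 at 20 of 154), nor did any site in all (0 of 18884). The share of all sites at unadjusted p under 0.05 is not given, so the 20 cannot be read as high or low for the members. In AL-old this comparison cannot tell sex apart from the correction and age.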

How the results depend on the processing

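Member sites higher in AL-old than AL-young numbered 7, and 19 with the correction offset, 11 with the correction covariate, 28 in the low-correction mice, 3 in promoters and 34 by the study's Spearman rule. The Spearman rule was applied here without the middle-aged mice that the paper included, so it was not the study's full setting. For the promoter, Spearman, sex, compared-groups, limma and regression counts no share of all sites is given. The same holds for the counts with a mouse left out, save those with age without AL-old 27. All these counts therefore cannot be read as high or low for the members. Sites lower numbered 13, and 5, 3 and 2 in those 3 correction fits, 8 with sex, 7 with the compared groups only, 8 with limma, 1 in promoters and 4 without the read-through span. CR-old was higher than AL-old at 3 sites, and at 1 with the offset, sex, the compared groups only or limma. It was higher at 0 with the correction covariate, in the low-correction mice, in promoters and without the read-through span. CR-old was lower at 3 sites, at 14 with the offset, and at 1 with the compared groups only or in promoters. The study's regression tests the product of age and diet, a difference of slopes and not of group levels. That product was positive at 1 member site and negative at 2 (regression t test, unadjusted p under 0.05). The regression, too, was fitted here without middle-aged mice. CR-old against AL-young gave 0 in each direction, 1 higher and 6 lower with the compared groups only, and 2 lower in the low-correction mice. Leaving out each mouse gave 3 to 11 gains (3 without AL-old 27, 11 without AL-old 08), 6 to 18 losses (6 without AL-young 16; 7 without AL-young 15, AL-young 28 or AL-old 13; 8 without AL-young 29), 1 to 7 sites higher in CR-old (7 without AL-old 25; 1 without AL-old 13, CR-old 02, 19, 20 or 22) and 0 to 4 lower (0 without CR-old 19, 1 without CR-old 20 or 22), and 0 and 0 for CR-old against AL-young. The causes were not tested.

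Among single sites, Fgfr3 turned from lower to higher in AL-old with the correction covariate (log2 odds ratio 0.96) and in the low-correction mice (1.10), and Smad3 with the offset (0.36). No paired analysis was possible because the mouse numbers of the groups are not shared.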
